A study of Mus musculus with 6 samples.

Results

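The genes described here are 10 members of the Hippo pathway, read from gene counts of cultured mouse muscle progenitors that received prostaglandin E2 (PGE2) or vehicle. They are the angiomotins Amot, Amotl1 and Amotl2, the coactivators Yap1 and Wwtr1 (which encodes TAZ), the transcription factors Tead1, Tead2, Tead3 and Tead4, and the kinase gene Lats2. The members were chosen by symbol, and all 10 were found among the 41388 genes of the table and passed the filter on low counts, which left 15186 genes. They were put together with earlier results of this same contrast known, so their differences between PGE2 and vehicle, and the p-values beside them, are a description and support nothing further.

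In GENCODE M21 (mm10) the angiomotin genes are Amot (ENSMUSG00000041688, chrX:145446425-145505181, minus strand), Amotl1 (ENSMUSG00000013076, chr9:14541966-14645056, minus) and Amotl2 (ENSMUSG00000032531, chr9:102716672-102733418, plus). The coactivator genes are Yap1 (ENSMUSG00000053110, chr9:7931999-8004596, minus) and Wwtr1 (ENSMUSG00000027803, chr3:57455649-57575910, minus). The TEAD genes are Tead1 (ENSMUSG00000055320, chr7:112679318-112906807, plus), Tead2 (ENSMUSG00000030796, chr7:45215753-45233644, plus), Tead3 (ENSMUSG00000002249, chr17:28331671-28350817, minus) and Tead4 (ENSMUSG00000030353, chr6:128224288-128300823, minus). Lats2 is ENSMUSG00000021959, chr14:57689662-57758388, minus. The table gives 1 count per gene, so splice forms are not told apart.

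All 6 libraries came from polyadenylated RNA of primary fibro-adipogenic progenitors of wild-type male mouse muscle, a mesenchymal cell type able to become fibroblasts or adipocytes. The cells grew in medium with 10% serum and 2.5 ng/mL hFGF. The PGE2 group (3 libraries) received 500 nM PGE2 once a day on 2 days, and the vehicle group (3 libraries) received vehicle in its place. No age is given, and the labels do not tie a library number to a mouse or a culture. The p-values therefore reflect only how much these 6 libraries varied, and that variation may be technical.

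In the Hippo pathway the kinases encoded by Stk3 and Stk4 activate LATS kinases, which phosphorylate YAP and TAZ and keep them out of the nucleus. YAP and TAZ that escape this step enter the nucleus and bind TEAD proteins, which contact DNA but need a coactivator to drive transcription. Angiomotins are scaffold proteins of cell junctions and actin filaments that bind YAP and TAZ directly and can hold them in the cytoplasm. The pathway is known in fibroblasts for reading cell density, cell shape and the stiffness of the matrix, and receptors that raise cyclic AMP, as some PGE2 receptors do, are known to feed into its kinase arm. Much of this control is by phosphorylation, which RNA counts do not measure.

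Promoter sequences were read from RefSeq windows on GRCm38.p6, the assembly also called mm10, that run from position -250 to position 50 relative to a start site. A window was held for 8 of the 10 genes, with Tead1 and Tead4 the exceptions, and for 13 of 20 target genes named further on. The TEAD core GGAATG, searched on both strands, occurred in 7 of 12 member windows and in 14.7% of all 32851 windows. The 12 windows overlap for some genes, and they hold the core at 8 separate places in 5 genes, Yap1, Wwtr1, Amotl2, Tead3 and Lats2. The windows of Amot, Amotl1 and Tead2 have none, which says only that these letters are not in these windows. All windows of Amot, Amotl1, Amotl2 and Lats2 lie wholly inside the annotated gene, at internal start sites. The sequence at the upstream end of these genes was not read. The core of the cyclic AMP response element, TGACGT, was in 1 of 12 member windows, that of Amotl1, and in 7.51% of all windows. The full palindrome TGACGTCA, which contains that core, was in 0 of 12 and in 1.79% of all. A match is a description of letters and not evidence of binding.

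The stretches below are shown because Amot and Amotl1 were lower together under PGE2, Yap1 and Wwtr1 carry the TEAD core, and Ccn1 is the most familiar of the pathway's target genes and carries both motifs. Each runs 5′ to 3′ on the gene's strand, outside annotated exons, with TEAD cores (GGAATG or its complement CATTCC) and cyclic AMP cores (TGACGT or its complement ACGTCA) in capitals. They lie at chrX:145487657-145487889, chr9:14615007-14615200, chr9:8004597-8004829, chr3:57575911-57576150 and chr3:145649986-145650225, all on the minus strand.
Amot: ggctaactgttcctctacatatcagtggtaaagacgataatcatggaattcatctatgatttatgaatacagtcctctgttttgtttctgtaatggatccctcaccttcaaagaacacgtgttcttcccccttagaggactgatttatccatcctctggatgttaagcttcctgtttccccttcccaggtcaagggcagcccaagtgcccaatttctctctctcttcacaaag
Amotl1: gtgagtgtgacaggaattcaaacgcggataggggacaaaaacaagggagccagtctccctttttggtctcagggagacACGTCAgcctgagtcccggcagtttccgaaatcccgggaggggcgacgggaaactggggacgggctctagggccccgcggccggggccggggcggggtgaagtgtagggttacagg
Yap1: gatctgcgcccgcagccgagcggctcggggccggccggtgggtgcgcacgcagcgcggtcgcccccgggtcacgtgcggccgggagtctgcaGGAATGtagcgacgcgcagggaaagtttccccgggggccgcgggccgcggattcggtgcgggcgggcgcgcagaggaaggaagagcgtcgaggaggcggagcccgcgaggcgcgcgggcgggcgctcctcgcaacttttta
Wwtr1: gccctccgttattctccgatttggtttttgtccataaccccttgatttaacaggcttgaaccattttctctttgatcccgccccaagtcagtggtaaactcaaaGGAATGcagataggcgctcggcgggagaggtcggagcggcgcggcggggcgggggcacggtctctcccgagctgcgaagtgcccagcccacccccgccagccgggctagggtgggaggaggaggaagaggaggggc
Ccn1: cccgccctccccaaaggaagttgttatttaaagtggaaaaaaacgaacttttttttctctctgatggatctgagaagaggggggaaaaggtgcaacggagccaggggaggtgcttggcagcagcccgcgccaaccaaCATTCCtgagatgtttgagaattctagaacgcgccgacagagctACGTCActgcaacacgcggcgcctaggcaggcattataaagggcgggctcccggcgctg

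In Amotl2, Lats2 and Tead3 a core lies inside or near an annotated exon, so 26 bases are shown around 1 place each, at chr9:102717729-102717754 on the plus strand and at chr14:57746104-57746129 and chr17:28350972-28350997 on the minus strand. These 3 genes are shown because Amotl2 and Lats2 are commonly listed as targets of YAP and TEAD as well as members of the pathway, and Tead3 holds 4 of the 8 places.
Amotl2: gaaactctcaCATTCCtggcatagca
Lats2: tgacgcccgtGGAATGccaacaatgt
Tead3: cgacgagcgaGGAATGgggtgcgcgg

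Totals ran from 21006044 to 52730962 counts per library, and values are given as CPM, counts normalised to library depth after scaling between libraries. The rarest member, Tead4, had 62 to 195 counts, and every other member had at least 1171. Pdgfra, the defining surface marker of these progenitors, was at 1122 to 1455 CPM in all 6 libraries. The paired fit, with the library number as a replicate block, called 7.51% of all tested genes lower and 6.91% higher. With the length correction described below added, these shares were 7.97% and 8.82%. Of the 10 fibro-adipogenic markers, 3 were higher in the paired fit (Ly6a, Cd55 and Pi16) and 3 lower (Cd34, Lum and Col15a1, the last at -0.97). With the length correction added, 5 were higher and 3 lower. The 4 leukocyte markers summed to between 2.839 and 3.919 CPM, with Ptprc at 0 counts throughout and Csf1r higher in the paired fit (1.09 and 1.89 CPM). The 4 Schwann cell markers summed to between 3.51 and 6.262 CPM, with Sox10 at 0 counts throughout and S100b lower in the paired fit (4.32 and 2.74 CPM). The 8 myogenic markers summed to between 35.63 and 165.2 CPM in vehicle libraries and between 13.03 and 105.2 CPM in PGE2 libraries, highest in library 1 of each group. Of the 6 that were tested, 4 were lower in the paired fit (median log2 fold change -1.26). With the length correction added, 1 of the 6 was lower (median -1.18). Without both libraries numbered 1, 4 were lower (median -1.68), beside 1.42% of all tested genes. Among the 8, Pax7 and Myf5, which define muscle stem cells, were at or below 0.116 CPM everywhere. Pericyte markers, 4 genes, summed to between 64.77 and 102.2 CPM in vehicle and between 46.29 and 69.97 CPM in PGE2 libraries. Of the 4, 3 were lower in the paired fit and 1 with the length correction added. The sums of 4 endothelial markers overlapped (20.56 to 45.78 and 18.56 to 32.5 CPM), and 1 of 3 tested was lower in the paired fit. The part of other cell types in the differences below was not tested. Values without both libraries numbered 1 are given where this changes the call of a pathway gene or of a gene chosen for its likeness to Amot. That setting was chosen after the data were seen. In a culture sequenced in bulk, fewer cells of a type and less RNA per cell cannot be told apart.

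Amot encodes angiomotin, whose longer form binds YAP through its proline-rich motifs. It stood at 60.4, 58.3 and 52.9 CPM in vehicle libraries 1 to 3 and at 38.6, 31.1 and 31.9 CPM in PGE2 libraries 1 to 3. Every PGE2 library was below every vehicle library, and PGE2 libraries 2 and 3 were nearly equal. Amot fell from a mean of 57.2 ± 3.87 CPM under vehicle to 33.9 ± 4.14 CPM under PGE2 (SD over 3 libraries in each group), or 0.592 times the vehicle level. Its log2 fold change was -0.76 ± 0.103 (SE). The adjusted p over all genes was 0.0402 (edgeR quasi-likelihood test, Benjamini-Hochberg).

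Amot was the 1 member of 10 past the threshold of 0.05 in that fit, which called 0.342% of all tested genes, 0.132% as lower and 0.211% as higher. In the paired fit, with the library number as a replicate block, its log2 fold change was -0.76 ± 0.0807 with an adjusted p of 0.00034. The unblocked call was lost when any library other than PGE2 library 1 was left out. The adjusted p was then 0.0856, 0.225 and 0.0524 without vehicle libraries 1 to 3, and 0.296 and 0.14 without PGE2 libraries 2 and 3, with fold changes between -0.81 and -0.70. Without vehicle library 2 or 3 or PGE2 library 2 or 3 the fit called 0 genes in the whole table, so every gene lost its call there. Without both libraries numbered 1 Amot was at -0.82 ± 0.0954, with an adjusted p of 0.00354. It was the 1 member called in that setting, where 3.29% of all tested genes passed, 1.42% as lower and 1.87% as higher.

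Amotl1 encodes a second angiomotin with the same kind of YAP-binding motifs. It was at 229, 224 and 165 CPM in the vehicle libraries and at 147, 119 and 140 CPM in the PGE2 libraries. The groups did not overlap, but vehicle library 3 lay nearer to PGE2 library 1 than to the other vehicle libraries. Its log2 fold change was -0.61 ± 0.144, with an adjusted p of 0.113 in the unblocked fit and 0.0117 in the paired fit, and of 0.00488 by DESeq2 without a block, so that the call of Amotl1 depended on the fit. The differences between same-numbered libraries were -0.64, -0.92 and -0.24 on the log2 scale.

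Amotl2, the third angiomotin, went the other way. It was at 411, 398 and 375 CPM in the vehicle libraries and at 425, 467 and 468 CPM in the PGE2 libraries, with every PGE2 library above every vehicle library. The log2 fold change was 0.20 ± 0.0835, which did not pass in the unblocked fit (adjusted p = 0.24) or the paired fit (adjusted p = 0.13). With the correction for transcript length described below, the paired fit put it at 0.25 with an adjusted p of 0.0132. Groups that do not overlap were seen for 2 members lower and 1 higher under PGE2, all of them angiomotins, against 12.2% and 13.7% of all tested genes.

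**Figure D1:**
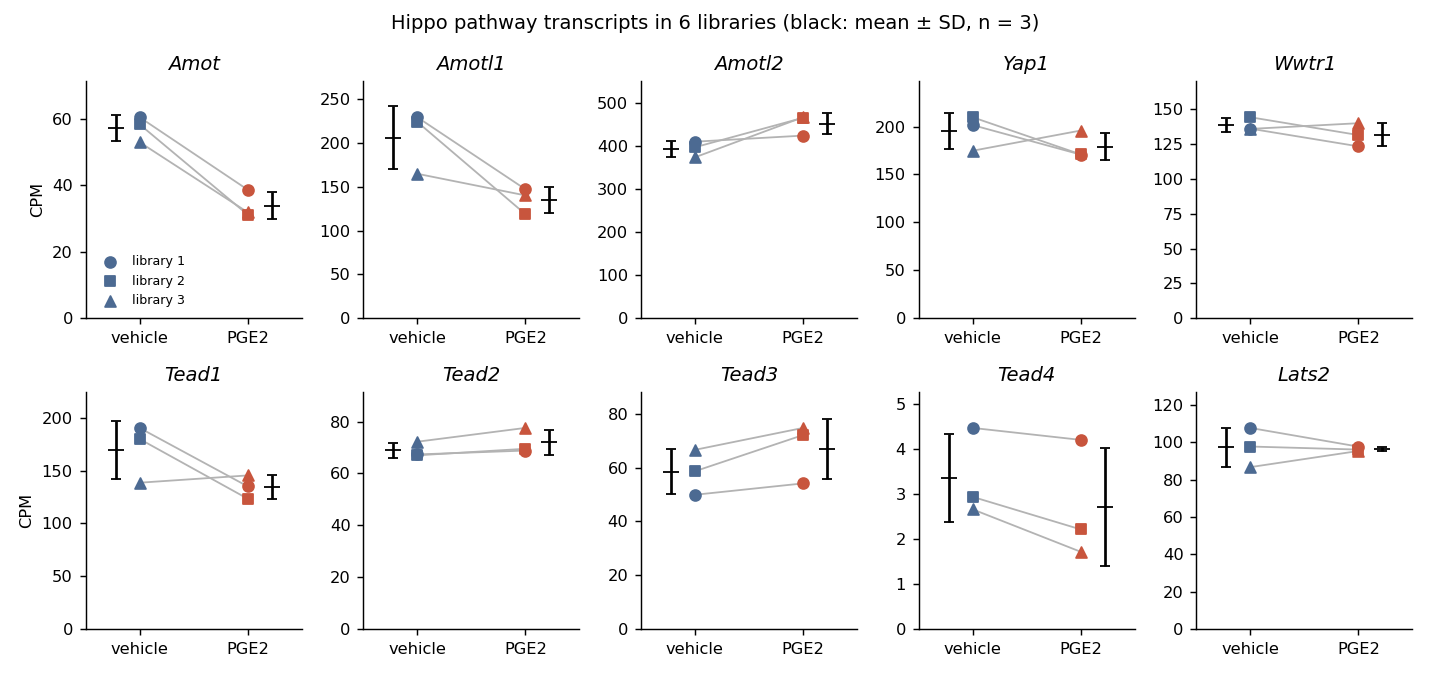
CPM of each of the 10 genes (vertical axes, each from 0) in vehicle libraries (blue) and PGE2 libraries (red), with grey lines joining libraries of the same number and black marks for the mean ± SD of 3. The groups are apart for Amot (52.9 to 60.4 against 31.1 to 38.6 CPM), Amotl1 and Amotl2, and overlap for the other 7 genes.

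The make-up of the angiomotin family can be compared only per length, so CPM were divided by the length of each gene's longest annotated transcript. On that scale Amotl2 was the most abundant, at 89.1 ± 4.17 CPM per kb in vehicle and 102 ± 5.49 in PGE2 libraries. Amotl1 was at 23 ± 3.99 and 15.1 ± 1.65 CPM per kb, and Amot at 8.23 ± 0.556 and 4.87 ± 0.595 CPM per kb. Amot made up 6.83%, 6.8% and 6.88% of the family's summed level in the vehicle libraries and 4.71%, 3.63% and 3.63% in the PGE2 libraries. The groups did not overlap in this share, and its SD was 0.0405 percentage points in vehicle and 0.618 in PGE2 libraries. Division by a fixed length leaves in place the trend of fold change with transcript length described below. The shares and ratios of the angiomotin and TEAD genes were not corrected for that trend.

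Amotl1 made up 19% ± 2.07 of the family in vehicle and 12.4% ± 1.58 in PGE2 libraries, and Amotl2 74.1% ± 2.03 and 83.6% ± 2.13 (SD, n = 3 each). There were 10.7, 10.7 and 11.1 Amotl2 per Amot on this scale in the vehicle libraries and 17.3, 23.6 and 23.1 in the PGE2 libraries. The ratio of Amotl1 to Amot overlapped between groups, with 2.78 ± 0.316 in vehicle and 3.11 ± 0.264 in PGE2 libraries. Both were lower together, while Amotl2 was not.

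**Figure D2:**
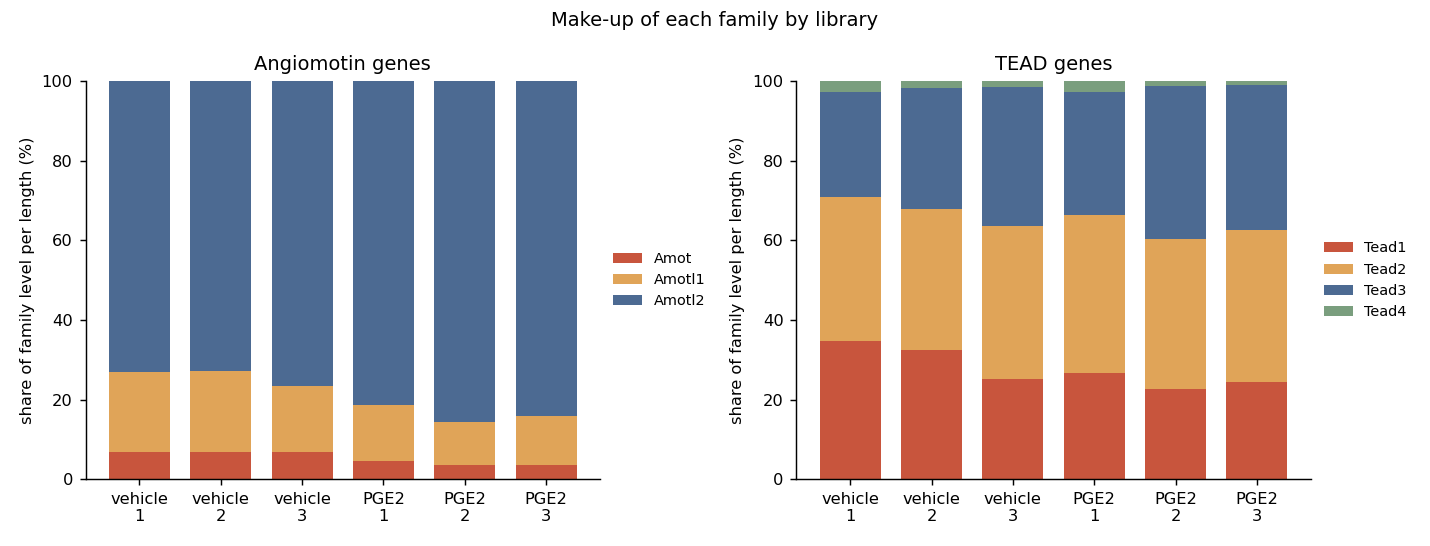
Share of each family's summed level per length (percent, vertical axis) in each library (horizontal axis) for the angiomotin genes (left) and the TEAD genes (right). Amotl2 takes 72.9% to 76.5% in vehicle and 81.4% to 85.6% in PGE2 libraries, while each TEAD gene's share overlaps between groups and Tead4 takes at most 2.68%.

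Yap1 and Wwtr1 encode YAP and TAZ, the coactivators that angiomotins and LATS kinases restrain. Yap1 was at 202, 210 and 175 CPM in the vehicle libraries and at 171, 171 and 196 CPM in the PGE2 libraries. Its groups overlapped, and library 3 was the lowest of its group under vehicle and the highest under PGE2. The log2 fold change was -0.12 ± 0.0984, with an adjusted p of 0.514 in the unblocked fit and 0.399 in the paired fit.

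Wwtr1 was at 136, 144 and 136 CPM under vehicle and 123, 131 and 140 CPM under PGE2, with a log2 fold change of -0.08 ± 0.0742 (adjusted p = 0.601). Per length there were 1.25 ± 0.0942 Yap1 for each Wwtr1 in vehicle and 1.21 ± 0.0474 in PGE2 libraries, so both coactivators were present at similar levels. Neither passed the test, which does not show that they were unaffected.

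TEAD genes encode the DNA-binding partners of YAP and TAZ. Tead1 had the largest difference of the 3 abundant ones, at 190, 180 and 139 CPM under vehicle and 135, 123 and 145 CPM under PGE2. Vehicle library 3 lay below PGE2 library 3, so the groups overlapped. Its log2 fold change was -0.33 ± 0.129, with an adjusted p of 0.214, or 0.0912 in the paired fit.

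Tead2 was at 67.3, 67 and 72.3 CPM under vehicle and at 68.9, 69.5 and 77.6 CPM under PGE2, a log2 fold change of 0.06 ± 0.0751 (adjusted p = 0.674). In all 3 numbers the PGE2 library was the higher, by 0.03, 0.05 and 0.10 on the log2 scale. Tead3 was at 49.9, 58.6 and 66.6 CPM under vehicle and at 54.1, 72.1 and 74.8 CPM under PGE2, a log2 fold change of 0.20 ± 0.152 (adjusted p = 0.5). The paired fit gave the same size with a smaller error, 0.19 ± 0.0744 (adjusted p = 0.106), and with the length correction Tead3 passed at an adjusted p of 0.0453.

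Tead4 was the rarest member, at 4.46, 2.93 and 2.66 CPM under vehicle and at 4.2, 2.21 and 1.71 CPM under PGE2. It is a TEAD gene known for its place in muscle differentiation. Its log2 fold change of -0.31 ± 0.367 did not pass (adjusted p = 0.674), and library 1 was the highest in each group. The geometric mean of the 8 myogenic markers had the same order, at 5.19, 1.6 and 1.33 CPM in the vehicle libraries and at 3.18, 0.61 and 0.674 CPM in the PGE2 libraries, apart from PGE2 libraries 2 and 3. The part of myogenic cells in the level of Tead4 was not tested.

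Per length, Tead1, Tead2 and Tead3 had similar levels, with shares of the family's sum of 30.8% ± 5.06, 36.6% ± 1.58 and 30.6% ± 4.27 in vehicle and 24.6% ± 1.96, 38.6% ± 1.16 and 35.2% ± 3.9 in PGE2 libraries. Tead4 took 1.97% ± 0.588 and 1.64% ± 0.919. The Tead1 share overlapped between groups, since vehicle library 3 had 25.1% and PGE2 library 1 had 26.6%.

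Lats2 encodes the kinase that phosphorylates YAP and TAZ and is itself a target of YAP. It was at 108, 97.7 and 86.7 CPM under vehicle and at 97.7, 96.1 and 95.3 CPM under PGE2. The means were 97.4 and 96.4 CPM, a log2 fold change of -0.01 ± 0.0883 (adjusted p = 0.943), whose sign turned with the length correction (0.08). The PGE2 libraries were closer to each other, with an SD of 1.19 CPM, than the vehicle libraries, with 10.5 CPM. In the annotation 42.4% of the exonic bases of Lats2 are shared with a gene model on the same strand, Gm49361. That model is not among the genes of the count table. How reads in the shared bases were counted is not known, so the count of Lats2 is uncertain.

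Ordered by level per length over all 6 libraries, Amotl2 came at the top, followed by Yap1 and Wwtr1, in every library. Amotl2 averaged 95.7 CPM per kb, Yap1 35.4 and Wwtr1 28.8. Tead2 (20.7), Amotl1 (19.1), Lats2 (18.7), Tead3 (18.2) and Tead1 (15.3) followed. Their ranges overlapped, except those of Tead2 (19.73 to 22.85) and Tead1 (12.38 to 19.11). Tead2, Amotl1 and Lats2 each ranked above Tead1 in all 6 libraries, and the rest of the order among these 5 changed between libraries. Amot (6.55) and Tead4 (0.985) were the lowest in all 6 libraries. Pearson r of log2 CPM was taken for all pairs of members across the 6 libraries, which include the treatment difference. The highest were Amotl1 and Tead1 at 0.952, Amot and Amotl1 at 0.932, Yap1 and Tead1 at 0.893, and Yap1 and Wwtr1 at 0.809. The lowest were Tead3 and Tead4 at -0.97 and Amot and Amotl2 at -0.869. These pairs were picked as the extremes.

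Transcript length moved with these differences. Among all tested genes in 5 equal groups by the length of the longest transcript, the median log2 fold change was 0.165 in the shortest group and -0.178 in the longest. Amot (6.96 kb), Amotl1 (8.96 kb), Tead1 (9.96 kb), Yap1 (5.28 kb) and Lats2 (5.19 kb) were in the longest group, which starts at 5.13 kb and whose middle 50% of genes lay between -0.344 and -0.0187. Amot and Amotl1 lay below that range, Tead1 just inside it. The longest group's median was -0.241 and -0.258 between libraries numbered 1 and 2, and -0.0119 between libraries numbered 3.

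The lowering of Amot was similar in the 3 numbers, at -0.65, -0.90 and -0.73, whereas Amotl1 and Tead1 were at -0.24 and 0.07 in number 3. With a length trend removed per library, Amot was at -0.59 and did not pass in the unblocked fit (adjusted p = 0.0805), where 0 of 10 members and 0.0988% of all tested genes were called, 0.0395% as lower and 0.0593% as higher. With that correction and the block Amot was at -0.59 (adjusted p = 7.5e-05) and Amotl1 at -0.38 (adjusted p = 0.00168). Tead1 went to -0.09 and Yap1 to -0.02. The part of length in the uncorrected differences was not tested beyond this correction.

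**Figure D3:**
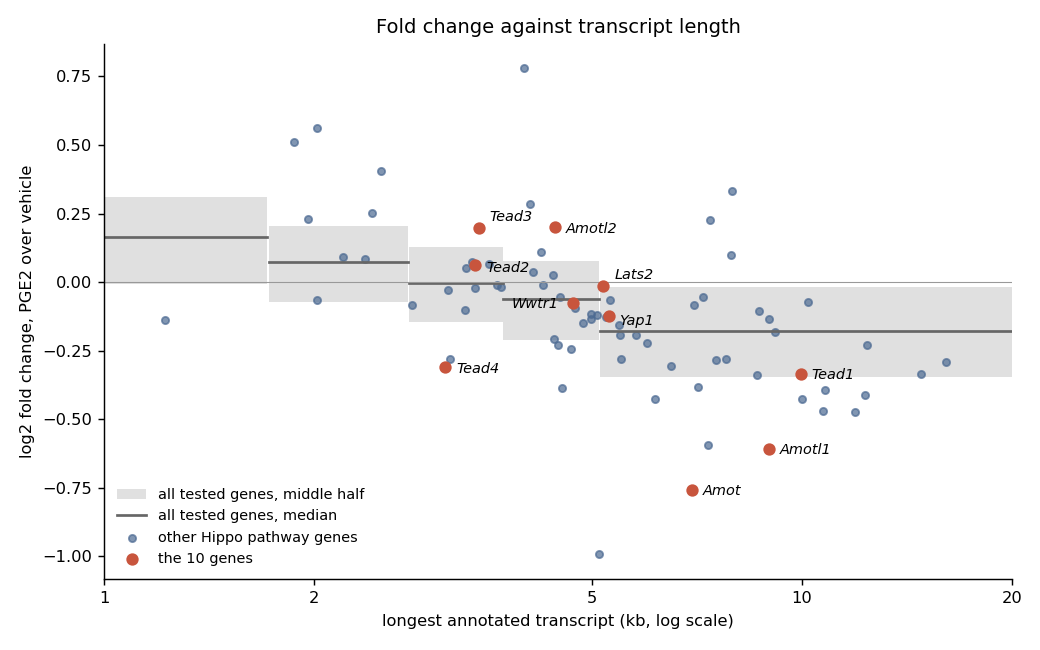
Log2 fold change in the unblocked fit (vertical axis) against the longest annotated transcript (horizontal axis, log scale) for the 10 genes (red), the other tested Hippo pathway genes (blue), and all tested genes in 5 length groups, drawn between 1 and 20 kb (grey bars, median and middle 50%). The median over all genes goes from 0.165 to -0.178, and Amot and Amotl1 lie below the grey bar of their group.

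By the paired fit, 2 of 10 members were lower (Amot and Amotl1) and 0 higher, where that fit called 7.51% of all tested genes lower and 6.91% higher. With the length correction added there were 2 lower and 2 higher, Amotl2 and Tead3 being the latter, against 7.97% lower and 8.82% higher among all tested genes. DESeq2 also called Amot and Amotl1 lower, and called 6.14% of all tested genes, 3.27% as lower and 2.86% as higher. The median log2 fold change of the 10 was -0.1 and that of all tested genes -0.001, and 7 of 10 members were below 0 against 7624 of 15186 genes. With the length correction the members' median was -0.0157.

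**Figure D4:**
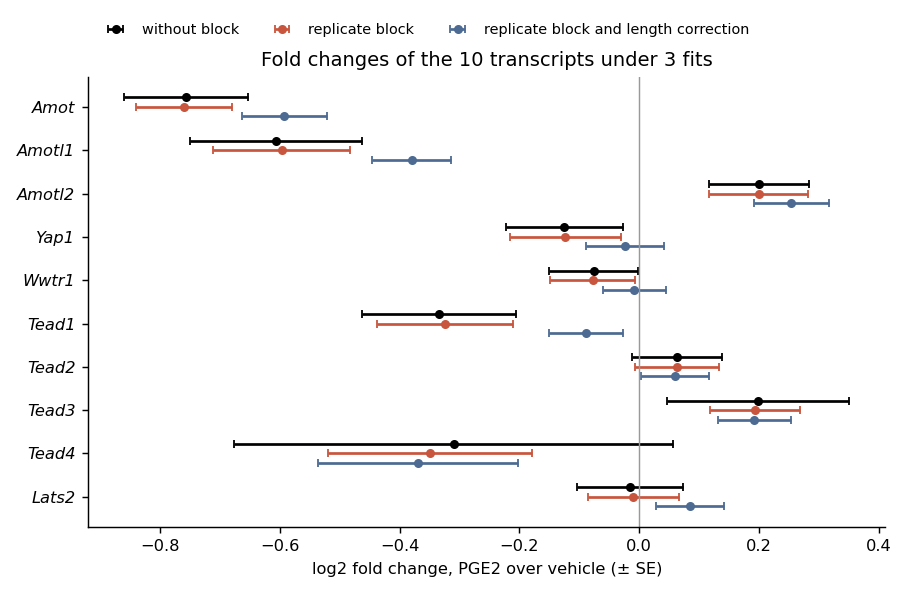
Log2 fold change of PGE2 over vehicle ± SE (horizontal axis) for each of the 10 genes (vertical axis) in the fit without a block (black), with the replicate block (red) and with the block and the length correction (blue). Amot and Amotl1 lie left of 0 in all 3 fits, Amotl2 lies to the right, and Tead1 moves from -0.33 to -0.09.

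The rest of the pathway was read from 6 lists with 69 genes, of which 67 were tested. In the unblocked edgeR fit 0 of 67 passed, with 20 at an unadjusted p under 0.05. Among all 15186 tested genes 3049, or 20.1%, had an unadjusted p under 0.05 in that fit, and the lists' counts below are to be set beside this share. DESeq2 called 1 higher and 4 lower. The paired fit called 4 higher and 12 lower, which is 16 of 67 beside 14.4% of all tested genes. With the length correction as well it called 8 higher and 8 lower, beside 16.8%. Their median log2 fold change was -0.115, or -0.0261 with the length correction.

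The kinase core next to Lats2 had 0 of 6 genes past the threshold in the unblocked, paired and DESeq2 fits, with 1 at an unadjusted p under 0.05. That gene was Mob1a, a cofactor of LATS kinases, at 175 ± 9.64 and 152 ± 5.11 CPM (log2 fold change -0.21, adjusted p = 0.19). The kinase genes Stk3 (-0.10) and Stk4 (-0.13) and the cofactor gene Mob1b (-0.13 in the paired fit) came next. Mob1b turned to 0.09 with the length correction.

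Upstream activators, which switch the kinases on, had 0 of 17 in the unblocked and DESeq2 fits, with 2 at an unadjusted p under 0.05. In the paired fit Frmd6, a junction scaffold of the pathway, fell (-0.24, adjusted p = 0.0421, and 0.0441 with the length correction added), as did the large cadherin gene Dchs1 (-0.41, adjusted p = 0.0217). Dchs1, with a transcript of 10.8 kb, did not pass with the length correction (-0.17, adjusted p = 0.0941). The kinase genes Taok3 and Map4k4 were at -0.23 and -0.19 and did not pass. In this list 16 of 17 genes were below 0, and the list's median was -0.192, or -0.0295 with the length correction.

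Genes that hold the kinases off, mainly the phosphatase complex built on striatins and the LIM proteins, had 0 of 10 in the unblocked and DESeq2 fits, with 3 at an unadjusted p under 0.05. The striatin gene Strn fell in the paired fit (-0.33, adjusted p = 0.0345) but not with the length correction (-0.12). Sike1, a subunit of the same complex, was at 31.4 ± 2.05 and 36.7 ± 0.639 CPM and rose once block and length correction were both used (0.41, adjusted p = 0.00844). Wtip, a LIM protein gene, was at 30.5 ± 1.27 and 35.9 ± 0.229 CPM (0.23, paired adjusted p = 0.0688), and Slmap at -0.19.

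Partners of angiomotins and the enzymes that tag or spare them for breakdown had 0 of 12 in the unblocked edgeR fit, with 7 at an unadjusted p under 0.05 beside the 20.1% of all tested genes, and DESeq2 called 1, Patj, lower. Patj encodes a junction scaffold that binds angiomotins. It was at 10.1, 11.1 and 7.72 CPM under vehicle and at 6.93, 6.11 and 6.12 CPM under PGE2, with groups that did not overlap. Patj was at a log2 fold change of -0.59 ± 0.159 (adjusted p = 0.132, paired 0.0154), and -0.40 with the block and the length correction (adjusted p = 0.0224).

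In the paired fit 3 others of this list fell, namely the ubiquitin ligase gene Nedd4l (-0.28), the tankyrase gene Tnks2 (-0.31) and the deubiquitinase gene Usp9x (-0.46). Of these, Usp9x alone also passed with the length correction (-0.19), at an adjusted p that rounds to 0.05. Magi1, another junction scaffold, went the other way, at 9.78 ± 0.575 and 12.3 ± 1.65 CPM, and rose with block and correction together (0.52, adjusted p = 0.00306). Nedd4, a ligase that can tag angiomotins, was very abundant, at 2871 ± 346 and 2364 ± 60.3 CPM, and did not pass (-0.28, adjusted p = 0.247, paired 0.0977).

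The VGLL proteins compete with YAP and TAZ for TEADs. Vgll3 was the main one, at 159 ± 10.7 CPM under vehicle and 151 ± 7.09 CPM under PGE2 (-0.08, and 0.09 with the length correction). Vgll4 was at 37.9 ± 1.74 and 40.3 ± 1.53 CPM (0.09), with groups that did not overlap. Neither of these 2 passed in the unblocked, paired or DESeq2 fits, and neither had an unadjusted p under 0.05. Vgll1 had no counts in any library, and Vgll2 was at or below 0.419 CPM and was not tested.

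Target genes of YAP and TEAD were read from a list of 20, Amotl2 and Lats2 being kept apart as members. None of the 20 passed in the unblocked edgeR fit (0, with 7 at an unadjusted p under 0.05 beside 20.1% of all tested genes), while DESeq2 called 1 higher and 3 lower. The paired fit called 4 higher and 5 lower, beside 6.91% and 7.51% of all tested genes, so the list split in direction. Its median log2 fold change was -0.0465.

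Ccn1 and Ccn2, which encode secreted matrix-associated proteins, are the targets most often used to read the pathway. Ccn1 was at 321, 298 and 349 CPM under vehicle and at 434, 468 and 525 CPM under PGE2, with every PGE2 library above every vehicle library. Its log2 fold change was 0.56 ± 0.104 (adjusted p = 0.0846), and Ccn1 rose in the paired fit (adjusted p = 0.00176). With the block and the length correction it was at 0.46 (adjusted p = 0.000309).

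Ccn2 was at 561, 402 and 405 CPM under vehicle and at 702, 543 and 567 CPM under PGE2. Vehicle library 1 lay above PGE2 library 2, so the groups overlapped, but each PGE2 library was above the vehicle library of its number, by 0.32, 0.43 and 0.48. Ccn2 rose in the paired fit (0.41 ± 0.0795, adjusted p = 0.00848) and did not pass unblocked (adjusted p = 0.225). Without both libraries numbered 1, a setting chosen after seeing the data, 1.87% of all tested genes were called higher in the unblocked fit. Ccn1 and Ccn2 passed there as well, at 0.62 (adjusted p = 0.0246) and 0.46 (adjusted p = 0.0381). With any single library left out neither passed, with adjusted p from 0.0552 to 0.387 for Ccn1 and from 0.166 to 0.513 for Ccn2.

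Ankrd1, the third of the usual readouts and a gene also expressed in muscle cells, was at 28.7, 8.47 and 12.3 CPM under vehicle and at 24.1, 13.1 and 10.4 CPM under PGE2. It differed more between numbers than between groups, library 1 being the highest in each, and its log2 fold change was -0.07 ± 0.508 (adjusted p = 0.957), or 0.01 in the paired fit. F3, the tissue factor gene, rose in the paired fit (0.49, adjusted p = 0.00265), as did the growth factor binding protein gene Igfbp3 (0.30, adjusted p = 0.0283). Nt5e, an ectonucleotidase gene, had the largest positive fitted change of the 20 (0.78) but only 8 to 44 counts per library, and did not pass (adjusted p = 0.195, paired 0.0773).

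Among targets that were lower, Tgfb2, which encodes a TGF-beta ligand, was at 27, 41.1 and 36.6 CPM under vehicle and at 15.6, 15 and 22 CPM under PGE2. The groups did not overlap. Tgfb2 had a log2 fold change of -0.99 ± 0.202 (adjusted p = 0.0962), and it fell in the paired fit (adjusted p = 0.00235). It also fell without both libraries numbered 1 (-1.07, adjusted p = 0.0181), beside 1.42% of all tested genes. Asap1 (-0.42, paired adjusted p = 0.00603) and Dock5 (-0.43, paired adjusted p = 0.0118), regulators of small GTPases, fell in the paired fit. So did the phosphatase gene Ptpn14 (-0.47, adjusted p = 0.00313), whose product can itself hold YAP back, and the membrane repair gene Myof (-0.37, adjusted p = 0.0132). Dock5, with a transcript of 9.99 kb, did not pass with the length correction (-0.19, adjusted p = 0.0664).

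Among the 9 targets called in the paired fit the higher ones were the shorter: Ccn1, Ccn2, F3 and Igfbp3 have longest transcripts of 2.02, 2.49, 1.87 and 2.42 kb, and Tgfb2, Asap1, Myof, Dock5 and Ptpn14 of 5.12, 6.16, 7.09, 9.99 and 10.7 kb. Among targets not called there, Gadd45a (1.22 kb) was at -0.14, Fjx1 (3.13 kb) at -0.28 and Rbms3 (7.91 kb) at 0.10 in the unblocked fit. Their adjusted p in the paired fit was 0.261, 0.166 and 0.459. The part of length in the direction of the targets was not tested. With the block and the length correction 6 targets were higher and 5 lower, beside 8.82% and 7.97% of all tested genes. Dock5 was no longer called there. Gadd45a was called lower (-0.29, adjusted p = 0.0059), and Rbms3 (0.28, adjusted p = 0.00674) and Ccdc80 (0.28, adjusted p = 0.0198) higher. The promoter windows of Ccn1 and Ptpn14, which moved in opposite directions, each hold the TEAD core, as do those of Ankrd1, Axl and Crim1, so that 5 of the 13 targets with a window held it. The share of windows with the TEAD core was 35.7% of 14. The windows of Ccn1 and Ptpn14 also hold the cyclic AMP core, which was in 14.3% of the 14 and in 7.51% of all windows.

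**Figure D5:**
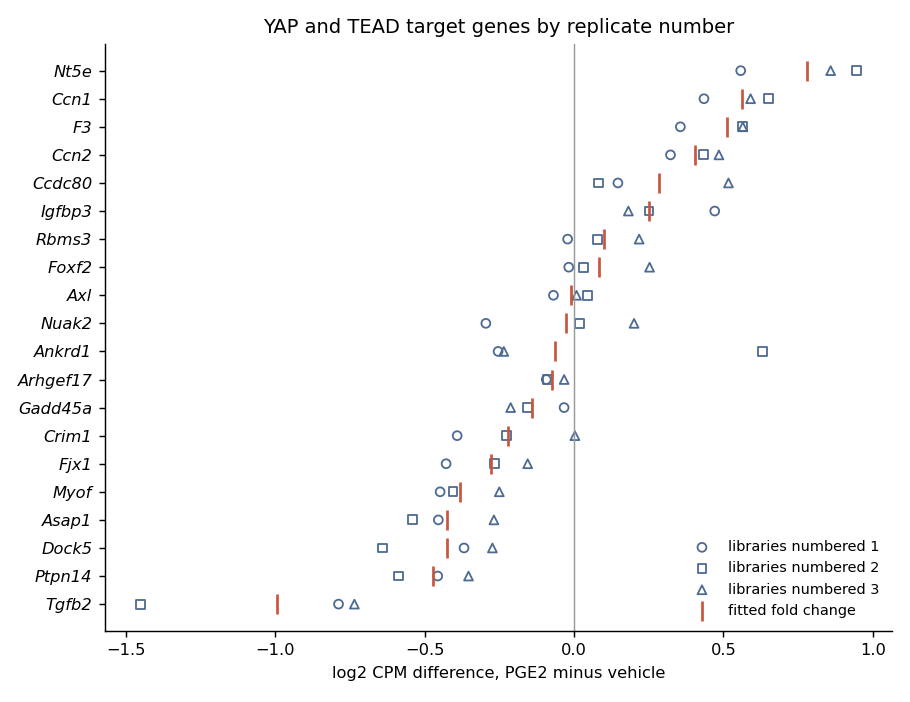
Difference in log2 CPM between PGE2 and vehicle libraries of the same number (open symbols, horizontal axis) and fitted log2 fold change (red bars) for the 20 target genes (vertical axis). Ccn1, Ccn2 and F3 lie right of 0 in all 3 numbers, Tgfb2, Ptpn14, Dock5, Asap1 and Myof left of it, and Ankrd1 on both sides.

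Among 10683 other genes averaging 5 CPM or more, those whose log2 CPM followed Amot most closely across the 6 libraries were Prkd2 (Pearson r = 0.996), Pomt1 (0.995), Clcn5 (0.994), Ttc27 (0.993) and Phka2 (0.993). Prkd2 encodes a protein kinase D, Pomt1 a protein mannosyltransferase, Clcn5 an endosomal chloride transporter and Phka2 a subunit of phosphorylase kinase. The 6 libraries include the treatment difference, so genes chosen this way are lower under PGE2 by the choice itself. Their log2 fold changes were -0.38, -0.20, -0.67, -0.19 and -0.56, and their calls are a description only. The unblocked fit called 0.132% of all tested genes lower, and of the 5 only Clcn5 passed there (adjusted p = 0.0402). The paired fit called 7.51% lower, among them Clcn5 (adjusted p = 0.000721), Phka2 (adjusted p = 0.00257) and Prkd2 (adjusted p = 0.0112). Without both libraries numbered 1, where 1.42% of all tested genes were called lower, Phka2 also passed unblocked, at -0.63 (adjusted p = 0.018). Clcn5 lost its unblocked call under the same 5 left-out libraries as Amot, with adjusted p from 0.0524 to 0.296. Without vehicle library 2 or 3 or PGE2 library 2 or 3 the fit called 0 genes in the whole table, so that shared loss is no likeness to Amot. With 6 libraries and this many genes, such values describe these libraries only.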

How the data were processed

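Polyadenylated RNA of 6 libraries, 3 vehicle and 3 PGE2, was read as 100-base paired ends, per the labels' protocols. The authors deposited a single table of raw counts, in which Ensembl identifiers stand beside symbols. Its genome build is mm10 according to the submitters' processing notes. Aligner, counter and strand setting: not given in the sources used here. Overlapping and antisense genes are therefore uncertain. Groups were taken from sample titles.

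The test was edgeR's (4.0.16, under R 4.3.3), with filterByExpr, trimmed mean of M values, and a robust quasi-likelihood test with Benjamini-Hochberg adjustment over 15186 genes and a threshold of 0.05. Alternatives were DESeq2 version 1.42.0, other scalings, no filter, each library left out, the replicate number as a block, and a length correction, which added a lowess trend on transcript length (span 0.3) per library to the offset. Log2 CPM used a prior count of 2. The edgeR fits with and without the block and the length correction were also run on simulated data. Where the simulation held pair effects, they were taken from same-numbered libraries. It therefore cannot show whether the numbers pair the samples.

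Same-numbered libraries deviated together from their group means, with correlations of 0.621, 0.169 and 0.422, each above the 0.1 required, so the numbers were taken to pair the samples. That rests on the data and not the labels, and the deviations of PGE2 library 2 were closer to those of vehicle library 3 (0.252). Exchanging numbers 2 and 3 in 1 group would meet the same minimum (0.621, 0.252 and 0.145). That pairing was not fitted, and every paired value depends on the numbers as labelled.

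Members and lists were chosen with earlier results of these data known. Named genes were all members, up to 4 per list with the smallest unblocked p, Ccn1, Ccn2, Ankrd1 and the Vgll genes, and the 5 genes most like Amot. Nedd4l, Nedd4, F3, Igfbp3, Ptpn14, Myof, Nt5e, Axl, Crim1, Gadd45a, Fjx1, Rbms3, Ccdc80 and the single marker genes fall outside that rule and were named after their values were seen. Positions and lengths are from GENCODE M21, promoters from RefSeq GRCm38.p6. Patj and Adgre1 were matched by Ensembl identifier, and Ccn1, Ccn2 and Pals1 by the older symbols in the table, Cyr61, Ctgf and Mpp5.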

Additional observations from a re-analysis of the deposited data

How the results depend on the processing

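The number of genes called over the whole table depended on the setting, and the cause was not tested. It was 52 (32 higher and 20 lower) in the unblocked fit and 932 (435 and 497) with DESeq2. It was 285 (143 and 142) with no filter on low counts, 15 (9 and 6) with the length correction, 2189 (1049 and 1140) with the replicate block and 2549 (1339 and 1210) with the block and the length correction. It was 65 (31 and 34) with library totals alone. With 1 library left out it ran from 0 to 120 (0 to 85 higher, 0 to 35 lower), and it was 0 without vehicle library 2 or 3 or PGE2 library 2 or 3. At an unadjusted p under 0.05 those 4 fits had 1871, 3697, 1494 and 2597 genes. Without both libraries numbered 1, a setting chosen after seeing the data, it was 495 (281 and 214).

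The median log2 fold change of the 10 members stayed between -0.15 and -0.0157 under every setting run. Amot, Amotl1, Tead1, Tead4, Yap1 and Wwtr1 were below 0 and Amotl2, Tead2 and Tead3 above 0 throughout. Lats2 changed sign, at 0.083 with the length correction and 0.085 with the block added, at 0.056 without both libraries numbered 1, and with a range of -0.096 to 0.058 over single libraries left out. Mob1b (0.086 in both) and Vgll3 (0.087 and 0.088) changed sign with the length correction, alone and with the block. Ankrd1 went to 0.012 with the replicate block, ran from -0.50 to 0.60 with 1 library left out, and was at 0.17 without both libraries numbered 1. Of the members, the replicate block changed the call of Amotl1 only. The depth of the libraries limits Tead4 most, at 62 counts in the shallowest.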
